A study of Mus musculus with 12 samples.

Results

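The genes described here are the mouse zinc finger genes whose symbol is Zfp followed by a digit. They were taken by that name rule alone, and 291 of the 11762 genes in the deposited expression table met it (2.47%). The 291 entries carry 290 symbols, because Zfp319 is listed under 2 gene IDs. All 291 passed the filter on low values, a level of at least 1 CPM (reads scaled to a common library total) in at least 3 libraries, so every member was tested. The cells were J774A.1, a macrophage-like line from BALB/c mice. The 4 groups were LPS+MP (lipopolysaccharide together with microparticles), LPS alone, MP (microparticles alone) and mock-treated control cells, each with 3 libraries described as biological replicates. LPS is the outer membrane component of Gram-negative bacteria that triggers Toll-like receptor 4. What the microparticles are made of, the doses and the treatment times are not stated in the labels, and all groups are 1 cell line with no engineered allele.

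Zfp is a naming convention and not 1 family. Most Zfp proteins carry C2H2 fingers, small zinc-bound folds that read DNA, and many of these also carry a KRAB box, which recruits the corepressor TRIM28 (KAP1) and the histone methyltransferase SETDB1 to silence retroelements and other targets. A few are unlike the rest: ZFP36 (tristetraprolin), ZFP36L1 and ZFP36L2 hold a pair of CCCH fingers that bind AU-rich elements in mRNA and bring the CCR4-NOT deadenylase to cytokine messages such as Tnf. In macrophages Zfp36 is known as an LPS-inducible brake on inflammatory mRNA, and it also limits its own message.

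Macrophage markers were abundant in every library. Of 10 macrophage markers 9 were in the table, and their summed level was 5716 to 5968 CPM in LPS+MP, 7087 to 8273 in LPS, 6368 to 6724 in MP and 6303 to 6994 in control libraries. Of the markers searched for other cells, 1 of 6 fibroblast genes, 1 of 6 T cell genes and 1 of 5 neutrophil genes had values, the highest being 11.5 CPM (Lck), and no epithelial or B cell marker had any. LPS replicate 2 stood apart: its distance to the average of LPS replicates 1 and 3 was over 1 on the log2(CPM + 1) scale in 18 members, against 0 members for every other library within its own group. Results that include LPS cells are therefore given with and without it where that matters. Depth is not stated and the values are scaled, and no counting error is attached to them.

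By the translated coding sequences of the GENCODE M21 annotation, 145 members carried C2H2 fingers and a KRAB-like stretch, 136 had C2H2 fingers without that stretch, 3 had CCCH fingers (Zfp36, Zfp36l1 and Zfp36l2), 6 matched no finger pattern (1 of them, Zfp935, held a KRAB-like stretch) and 1 had no coding model. The KRAB proteins had a median of 12 C2H2 fingers (2 to 33), and the C2H2 proteins without KRAB a median of 7 (1 to 36). Members were bunched on few chromosomes. Chromosome 7 held 74 of them, 25.4% against 7.77% of all genes in the table, chromosome 17 held 39 (13.4% against 5.44%) and chromosome 13 held 31 (10.7% against 3.77%). On chromosome 17, 33 of the 39 were KRAB genes. Another member lay within 100 kb for 107 KRAB genes (73.8%) and for 48 C2H2 genes without KRAB (35.3%). Transcripts of KRAB genes had a median GC content of 41.7%, against 51.2% for C2H2 genes without KRAB and 50.5% for all other genes.

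Most members were expressed at low levels. Per kilobase of transcript, the median of their mean level over the 12 libraries was 3.69 CPM per kb, against 11.3 for all other genes. KRAB genes had a median of 2.4 and C2H2 genes without KRAB 6.45 CPM per kb. The highest members on this scale were Zfp207 (80.4 CPM per kb), whose protein binds spindle microtubules, Zfp36 (78.9), Zfp36l2 (62.6), Zfp703 (42.9) and Zfp385a (38.9). In CPM, without division by length, the members' means ran between 0.89 and 262 with a median of 11.1. Summed over all members the level was close between groups: 6340 ± 182 CPM in LPS+MP, 6306 ± 189 in LPS, 6509 ± 54.6 in MP and 6381 ± 119 in control cells (SD, n = 3 each).

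The sequences shown here belong to members on which the results turn. The first are windows of the Zfp36 transcript around its TATTTAT motifs, the core of the AU-rich element that ZFP36 proteins bind. The part of the GENCODE transcript after the coding sequence, 777 bases long, held 3 of them. They lie on the minus strand of GRCm38 at chr7:28376966-28376994, chr7:28376951-28376979 and chr7:28376926-28376954, and are printed with the motif in capitals.
Zfp36 window 1: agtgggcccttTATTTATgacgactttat
Zfp36 window 2: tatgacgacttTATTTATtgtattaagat
Zfp36 window 3: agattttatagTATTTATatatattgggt

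The second set are RefSeq promoter windows (GRCm38.p6, 250 bases before to 50 after the start, minus strand) of genes called under LPS: Zfp36, the neighbours Zfp811 and Zfp101, and Zfp367. They were searched on both strands for 6 motifs: GGG-NN-TTTCC (NF-kB-like), GAAA-NN-GAAA (interferon-stimulated response element-like), TGANTCA (AP-1), TGACGTCA (CRE), TTTCCCGC (E2F-like) and CC-NN-AT-NN-GG (CArG-like), where N is any base. No 2 motif matches overlapped in the windows printed. Capitals mark a match: a CArG-like match in Zfp811 at chr17:32809882-32810181 and an E2F-like match, on the opposite strand, in Zfp367 at chr13:64153150-64153449. The windows of Zfp36 at chr7:28379179-28379478 and Zfp101 at chr17:33394588-33394887 held none of the 6. Zfp367 has a further RefSeq start, whose window is not printed. The table's model of Zfp811 ends at 32800938, short of the RefSeq start.
Zfp36: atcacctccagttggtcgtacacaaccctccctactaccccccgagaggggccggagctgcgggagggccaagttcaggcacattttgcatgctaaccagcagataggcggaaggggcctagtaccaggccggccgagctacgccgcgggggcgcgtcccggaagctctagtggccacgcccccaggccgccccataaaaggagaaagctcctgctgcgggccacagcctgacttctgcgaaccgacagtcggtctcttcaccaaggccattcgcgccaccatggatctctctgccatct
Zfp811: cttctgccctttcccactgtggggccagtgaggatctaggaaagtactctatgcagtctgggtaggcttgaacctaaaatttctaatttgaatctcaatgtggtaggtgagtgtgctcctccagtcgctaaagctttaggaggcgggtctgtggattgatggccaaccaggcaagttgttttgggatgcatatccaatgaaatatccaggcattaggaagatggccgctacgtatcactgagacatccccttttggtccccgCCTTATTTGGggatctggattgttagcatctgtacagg
Zfp101: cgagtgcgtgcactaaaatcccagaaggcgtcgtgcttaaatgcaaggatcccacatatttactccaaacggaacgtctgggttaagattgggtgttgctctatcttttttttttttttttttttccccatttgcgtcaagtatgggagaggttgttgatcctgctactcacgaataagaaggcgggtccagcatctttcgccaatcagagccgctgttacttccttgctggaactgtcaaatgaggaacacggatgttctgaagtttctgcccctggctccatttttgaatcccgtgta
Zfp367: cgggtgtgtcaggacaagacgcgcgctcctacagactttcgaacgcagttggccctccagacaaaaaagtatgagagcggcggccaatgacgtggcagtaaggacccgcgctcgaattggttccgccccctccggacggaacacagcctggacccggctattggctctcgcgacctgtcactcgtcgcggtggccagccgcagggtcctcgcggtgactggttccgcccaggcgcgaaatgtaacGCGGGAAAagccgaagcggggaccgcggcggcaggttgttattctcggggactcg

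RefSeq windows were matched for 8714 genes of the table, 241 of them members. The CArG-like motif was in 4.98% of the members' windows and 6.02% of all windows, the E2F-like motif in 2.49% and 2.48%, and AP-1 in 4.98% and 6.33%. The NF-kB-like motif was in 3.32% of the members' windows and 2.23% of all windows. CRE was in 4.56% and 3.72%, and the interferon-stimulated response element-like motif in 1.66% and 3.91%. These are matches of letters and describe the windows only.

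The question put to the members was how each treatment, alone and on top of the other, changed them. A member is said to have risen or fallen when limma's adjusted p was under 0.05 and the change was over 2-fold, and to be higher or lower when it passed the adjusted p alone. Over the 4 pairwise comparisons 22 members were called and 269 were not, while 202 passed the adjusted p alone at least once. The matching counts over all genes are not given here. By comparison, 23% to 43.6% of members passed the adjusted p alone, against 35.4% to 62.6% of all other genes. Members had the smaller share each time. In LPS against control 5 rose, 1.72% of the members (background over all tested genes 8.3%), and 7 fell, 2.41% of the members (background 8.05%). In MP against control 1 rose (background 1.82%) and 2 fell (background 1.85%). None rose in LPS+MP against LPS (background 0.63%) and 2 fell (background 3.89%). With LPS+MP against MP, 4 rose (background 5.71%) and 12 fell (background 7.88%). The shares also differed within ranges of level. Among members with a mean of 5 to 20 CPM, 3.94% were called in LPS against control, against 20.4% of other genes in the same range, and under 5 CPM the shares were 1.41% and 20.3%. Only 10 members lay over 100 CPM, where 20% of members and 16% of other genes were called. These shares were described and not tested.

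The tandem CCCH genes moved in opposite directions under LPS. Zfp36 rose and Zfp36l2 fell. Zfp36, at chr7:28376784-28379255 on the minus strand of the table's coordinates, had 461, 507 and 473 CPM in LPS+MP libraries, 256, 200 and 282 in LPS, 94.3, 93.7 and 89.8 in MP and 65.3, 57.3 and 61.9 in control. The 4 groups did not overlap, and the highest level was in cells given both treatments. Its log2 fold change in LPS against control was 1.97 ± 0.10 (SE, limma adjusted p = 1.49e-10), a 4-fold ratio of means. LPS+MP exceeded MP by 2.36 ± 0.10 (adjusted p = 1.58e-11). With MP it was higher, within 2-fold: 0.98 ± 0.10 in LPS+MP against LPS (adjusted p = 2.84e-06) and 0.58 ± 0.10 in MP against control (adjusted p = 3.36e-04). LPS replicate 2 was its lowest LPS library, and without it the change in LPS+MP against LPS was 0.83. After median-ratio scaling 1 of the 3 CCCH genes rose past 2-fold in that comparison. In bulk RNA, fewer cells expressing a gene and less RNA per cell cannot be told apart, here and for every member below.

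Zfp36l2, at chr17:84183931-84187947, ran the other way. It had 88.3, 88 and 90 CPM in LPS+MP, 126, 120 and 115 in LPS, 264, 290 and 301 in MP and 367, 424 and 376 in control. Again no 2 groups overlapped, and the lowest level was in cells given both. It fell by 1.68 ± 0.07 on the log2 scale in LPS against control (adjusted p = 2.12e-11) and by 1.67 ± 0.07 in LPS+MP against MP (adjusted p = 2.05e-11). With MP it was lower, within 2-fold: -0.45 ± 0.07 in MP against control (adjusted p = 2.11e-04) and -0.43 ± 0.07 in LPS+MP against LPS (adjusted p = 3.06e-04). Zfp36l1 had 28.2, 34 and 32 CPM in LPS+MP, 33.9, 19.5 and 31.9 in LPS, 42.6, 48.2 and 40.9 in MP and 42.1, 45.8 and 44.7 in control. It was lower in LPS than in control by a log2 fold change of -0.66 ± 0.15 (adjusted p = 0.00169). Its lowest value was that of LPS replicate 2, and without that library the change was -0.42.

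**Figure D1:**
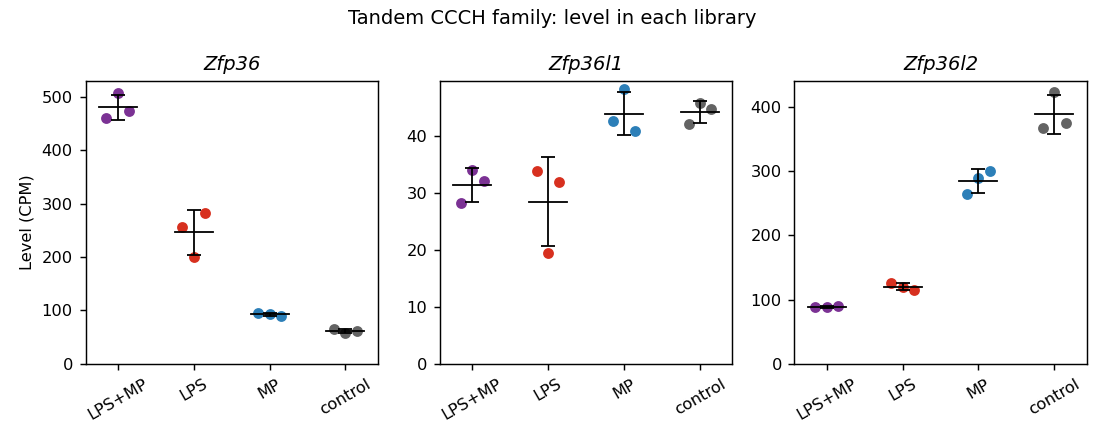
Level in CPM of the 3 tandem CCCH genes in every library (points; bars are the mean ± SD of 3 libraries), with the groups LPS+MP, LPS, MP and control from left to right. Zfp36 lies between 461 and 507 CPM in LPS+MP and between 57.3 and 65.3 in control, while Zfp36l2 lies between 88 and 90 in LPS+MP and between 367 and 424 in control.

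The partners and targets of these proteins were taken from lists of known genes. These and the other gene lists below were chosen with earlier results of these data known. Their shares are set beside the background as a description and were not tested. Of 26 genes of AU-rich mRNA decay and its regulators, all in the table, 1 rose in LPS against control (3.85%, background 8.3%). Zc3h12a (regnase-1, an endonuclease for cytokine mRNA) averaged 125 CPM in LPS and 20.4 in control, a log2 fold change of 2.53 ± 0.14 (adjusted p = 3.97e-10). With LPS added to MP 3 rose (11.5%, background 5.71%), Zc3h12a, the phosphatase gene Dusp1 and the kinase gene Mapkapk2, whose product phosphorylates ZFP36. None of the 26 fell past 2-fold in any of the 4 pairwise comparisons (background 1.85% to 8.05%). At the adjusted p alone, in LPS against control, 8 were higher (30.8%, against 26.6% of all genes) and 11 lower (42.3%, against 35.6%). The list's median log2 fold change in LPS against control was -0.18, against -0.08 for all genes. Of 17 measured genes whose mRNA is a known target of ZFP36, Zfp36 itself included, 15 rose in LPS against control (background 8.3%) and 16 in LPS+MP against MP (background 5.71%). In MP against control 4 of the 17 rose (23.5%, background 1.82%). In LPS+MP against LPS 4 rose (23.5%, background 0.63%) and 1 fell (5.88%, background 3.89%). Tnf averaged 1028 CPM in LPS+MP and 464 in LPS (log2 1.15 ± 0.09, adjusted p = 9.8e-08), and Cxcl2 2419 and 815 (1.56 ± 0.11, adjusted p = 3.58e-08). The 1 that fell was Il10, at 7.32 in LPS+MP and 34.7 CPM in LPS (-2.11 ± 0.17, adjusted p = 2.29e-07). The targets are LPS-response genes in their own right, and whether ZFP36 acted on them was not tested.

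Zfp811, a KRAB gene with 14 C2H2 fingers at chr17:32797406-32800938 on the minus strand, had the largest change of any member. Its level was 23.3, 25.4 and 27.7 CPM in LPS+MP, 40.8, 54.3 and 37.2 in LPS, 0.222, 0.663 and 1.06 in MP and 1.07, 0.527 and 0.954 in control. All libraries with LPS were far above all libraries without it. The ratio of means was 51.8 in LPS against control and 39.3 in LPS+MP against MP, and on the log2(CPM + 1) scale, which compresses changes near 0, it rose by 4.60 ± 0.19 (adjusted p = 1.41e-11) and 4.03 ± 0.19 (adjusted p = 5.89e-11). LPS+MP lay below LPS by -0.75 ± 0.19 (adjusted p = 0.00697) without overlap, within 2-fold, while MP and control overlapped (-0.19 ± 0.19, adjusted p = 0.469). Without LPS replicate 2, its highest library, the change in LPS+MP against LPS was -0.60.

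Zfp811 sits in a run of 13 genes of the table on chromosome 17, from Zfp871 at 32771236 to Zfp101 at 33394641, of which 12 are members. Of these 12, Zfp811 rose and Zfp101 fell in LPS against control. There 8.3% of all genes rose and 8.05% fell, so the share called among the 12 members was near the background. The neighbours on either side of Zfp811 moved far less: Zfp871 averaged 91.7 ± 12.9 CPM in LPS and 62.4 ± 7.87 in control (log2 0.55, adjusted p = 0.00098), and Zfp799 19 ± 2.45 and 17.4 ± 0.402 (0.11, adjusted p = 0.364). The 1 gene of the run that is no member, Cyp4f13, a cytochrome P450 gene, also rose. It averaged 25.5 ± 4.13 CPM in LPS and 11.6 ± 0.773 in control (1.06, adjusted p = 8.99e-07). The KRAB genes of such runs are similar in sequence, and the labels do not say how reads matching several of them were counted, so levels of single neighbours are uncertain to that extent.

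Zfp101, a KRAB gene at chr17:33360507-33394641, fell furthest where both agents were present. It had 2.51, 1.21 and 2.39 CPM in LPS+MP, 6.76, 7.96 and 7.94 in LPS, 11.1, 10.7 and 13 in MP and 17.5, 16.6 and 15.1 in control, with no overlap between any 2 groups. It fell in LPS+MP against LPS by 1.52 ± 0.16 (adjusted p = 4.13e-06), in LPS+MP against MP by 2.08 ± 0.16 (adjusted p = 2.71e-08) and in LPS against control by 1.02 ± 0.16 (adjusted p = 5.95e-05). The last call was at the 2-fold threshold and was lost under 4 alternatives (-0.95 to -0.99). In MP against control it was lower, at -0.47 ± 0.16 (adjusted p = 0.0347).

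**Figure D2:**
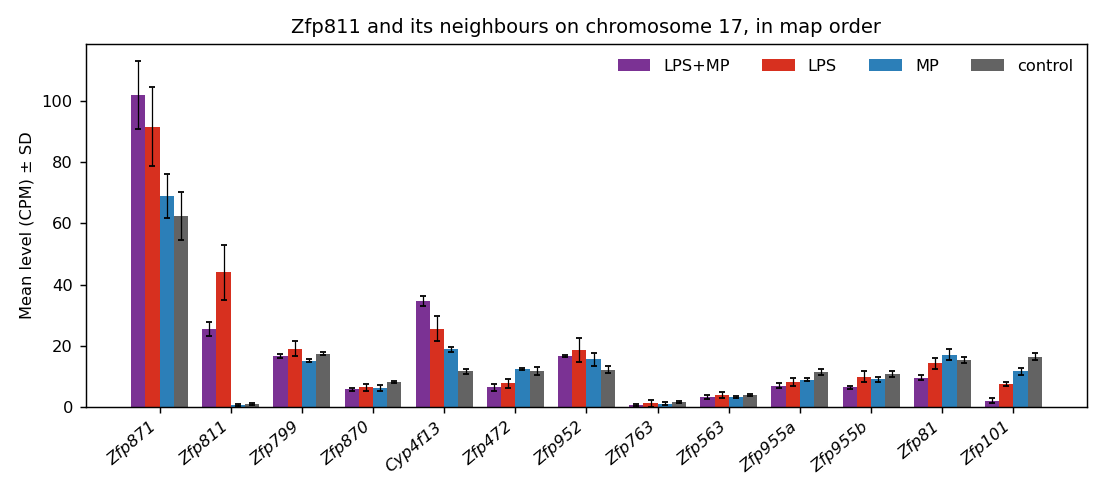
Mean level in CPM (bars, ± SD of 3 libraries) of the 13 genes in map order on chromosome 17, for LPS+MP, LPS, MP and control from left to right within each gene. Zfp811 averages 25.5 CPM in LPS+MP and 44.1 in LPS but 0.647 in MP and 0.851 in control, whereas Zfp799 beside it stays between 15.1 and 19 CPM in all 4 groups.

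The other rises under LPS were modest. Zfp281, a repressor known from pluripotent cells, had 75.2, 94.3 and 71.4 CPM in LPS and 38.7, 37.9 and 32.8 in control (log2 1.11 ± 0.10, adjusted p = 1.22e-07). Zfp397, a C2H2 gene without KRAB, had 66.1, 97.9 and 62.5 CPM in LPS and 34.2, 31.7 and 30.8 in control (1.17 ± 0.13, adjusted p = 9.74e-07). LPS replicate 2 was the highest of its group for both, and without it both stood just inside 2-fold, at 0.99 and 0.97. Zfp691 had 7.91, 7.87 and 7 CPM in LPS and 2.75, 3.98 and 2.53 in control (1.09 ± 0.16, adjusted p = 1.99e-05), and its call was lost without control replicate 3 (0.99).

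The falls under LPS were led by Zfp395, whose human counterpart is known as a hypoxia-inducible regulator of transcription. It had 4.46, 1.48 and 3.96 CPM in LPS and 37.7, 41.6 and 33.5 in control, an 11.4-fold lower mean in LPS, and fell by 3.24 ± 0.23 on the log2 scale (adjusted p = 6.67e-09). Zfp385a, which encodes a p53 partner that also binds RNA, had 64.1, 49.5 and 57.4 CPM in LPS and 151, 154 and 145 in control (-1.39 ± 0.10, adjusted p = 5.2e-09). Zfp367 had 12.1, 14.8 and 14 CPM in LPS and 39, 40.9 and 36.8 in control (-1.45 ± 0.12, adjusted p = 3.75e-08). In each of these 3 genes, which were picked by their calls, every LPS library lay well below every control library. Zfp541, known from meiotic germ cells, had 2.54, 0.472 and 1.88 CPM in LPS and 7.17, 6.44 and 6.28 in control (-1.63 ± 0.27, adjusted p = 8.43e-05). Zfp704 had 4.11, 2.54 and 4.13 CPM in LPS and 9.28, 7.39 and 10 in control (-1.12 ± 0.18, adjusted p = 6.94e-05), and without LPS replicate 2 its change was -0.94. By the adjusted p alone, 60 members were higher in LPS than in control (20.6% of members, 26.6% of all genes) and 67 lower (23%, 35.6% of all genes). The median log2 fold change was 0.00 over the members and -0.08 over all genes.

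**Figure D3:**
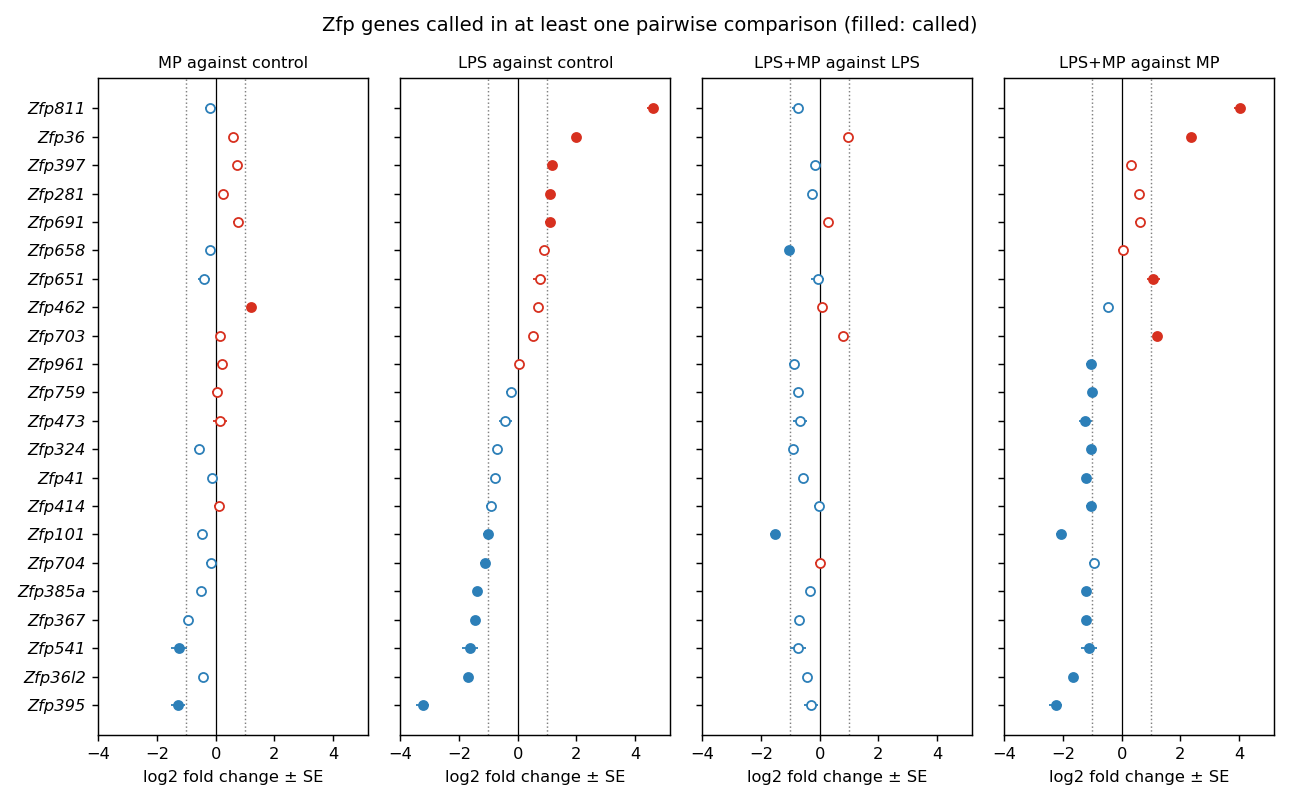
log2 fold change (± SE) of the 22 members called in at least 1 pairwise comparison, in 4 panels by comparison. Filled symbols mark calls (adjusted p under 0.05 and over 2-fold), red is higher and blue lower in the first-named group, and dotted lines mark 2-fold. Zfp811 reaches 4.60 and Zfp395 -3.24 in LPS against control, while 3 symbols are filled in MP against control and 2 in LPS+MP against LPS.

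MP alone called 3 members. Zfp462, a large C2H2 protein (33 fingers by the pattern) of chromatin in stem and neural cells, had 13.6, 12.6 and 11.8 CPM in MP and 4.88, 5.45 and 4.35 in control, and rose by 1.21 ± 0.13 (adjusted p = 5.88e-06). Zfp395 had 13.2, 15.6 and 15.4 CPM in MP and the control values given above, and fell by 1.29 ± 0.23 (adjusted p = 3.98e-04). Zfp541 had 1.31, 2.45 and 3.02 CPM in MP and 7.17, 6.44 and 6.28 in control, and fell by 1.26 ± 0.27 (adjusted p = 0.0018). In each of the 3 genes the MP libraries did not overlap the control libraries. That also held for uncalled members such as Zfp64 (-0.10, limma adjusted p = 0.468), so it adds little to the calls. Just inside 2-fold was Zfp367, with 20.6, 21.7 and 17.8 CPM in MP and 39, 40.9 and 36.8 in control (-0.93 ± 0.12, adjusted p = 2.25e-05). By the adjusted p alone 42 members were higher in MP (14.4%, against 20.6% of all genes) and 25 lower (8.59%, against 18.3%). The 4 groups share 1 estimate of the spread, so these counts also depend on libraries outside the comparison. Without LPS replicate 2, 65 members were higher and 39 lower (22.3% and 13.4%), and the shares of all genes in that fit are not given here. The median log2 fold change was 0.03 over the members and 0.02 over all genes.

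When MP was added to LPS, 2 members fell past 2-fold. One was Zfp101. The other, Zfp658, a KRAB gene whose human counterpart is linked with zinc-sensitive transcription, had 9.34, 9.86 and 12.8 CPM in LPS+MP, 23, 21.4 and 23.6 in LPS, 11.7, 8.32 and 11.2 in MP and 12.3, 12.3 and 11.1 in control. LPS alone was the only group above the rest, LPS+MP overlapped both MP and control, and Zfp658 fell by 1.03 ± 0.14 in LPS+MP against LPS (adjusted p = 3.54e-05). That call was lost without LPS+MP replicate 1 (-0.95) or 2 (-0.99) and after quantile normalization (-0.89). At the adjusted p alone 22 members were higher in LPS+MP than in LPS (7.56%, against 13% of all genes) and 60 lower (20.6%, against 22.2% of all genes).

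The KRAB class had a lower median than the table in this comparison, by an amount that depended on 1 library and on the kind of scaling. Its median log2 fold change in LPS+MP against LPS was -0.24, with 32 of 145 genes lower (22.1%, near the 22.2% of all genes) and 3 higher (2.07%, against 13% of all genes). The median was -0.05 for C2H2 genes without KRAB (26 lower and 16 higher of 136) and for all genes. Without LPS replicate 2 the KRAB median was -0.13 (18 lower, 5 higher) and that of all genes -0.06. After quantile normalization it was -0.04 (11 lower, 10 higher) and that of all genes 0.04. After median-ratio scaling the KRAB median was -0.21 (29 lower, 4 higher) and that of all genes -0.02. The shares of all genes lower and higher in these alternative fits are not given here. LPS replicate 2 differed from the mean of LPS replicates 1 and 3 by a median of 0.33 over the KRAB genes, 74.5% of which were higher in it, by -0.03 over C2H2 genes without KRAB and by -0.04 over all other genes. Over 289 members with a known transcript, all measured in the same 3 LPS libraries, that deviation had a Spearman correlation of -0.61 with transcript GC content. In LPS against control the KRAB median was 0.06 with this library and -0.05 without it. The part of the library in these medians beyond the values without it was not tested.

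**Figure D4:**
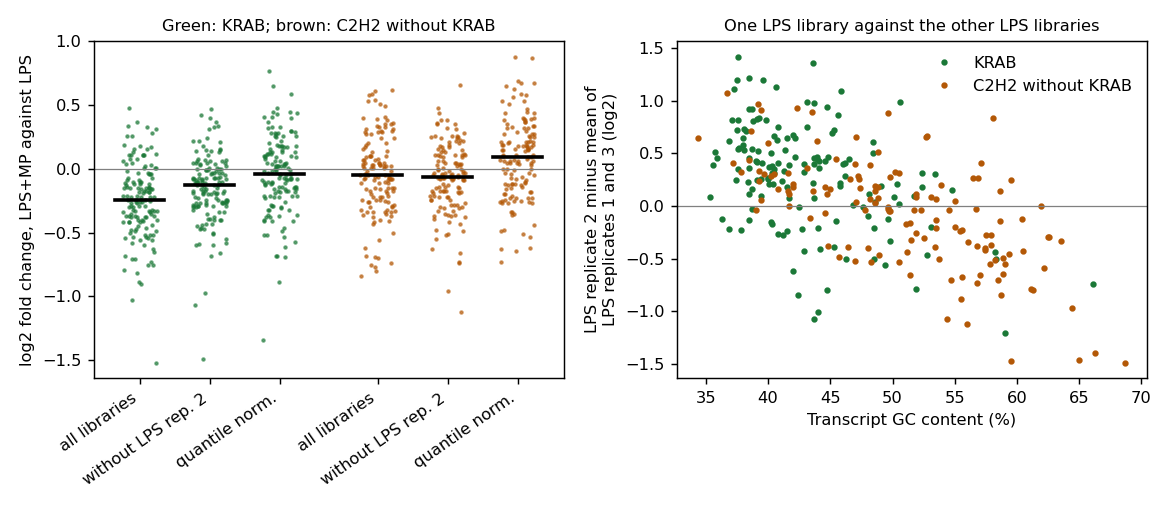
Left, log2 fold change in LPS+MP against LPS of each of 145 KRAB genes and 136 C2H2 genes without KRAB (points; black lines are medians), with all libraries, without LPS replicate 2 and after quantile normalization. Right, deviation of LPS replicate 2 from the mean of LPS replicates 1 and 3 (log2) against transcript GC content (%) for the members of both classes. The KRAB median moves between -0.24, -0.13 and -0.04, and low-GC transcripts lie mostly above 0 on the right.

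A list of 22 genes held KRAB corepressors together with general heterochromatin and DNA methylation genes, and all 22 were in the table. It too was chosen with earlier results of these data known, so its shares are a description only. In LPS against control 6 fell (27.3%, against 8.05% of all genes) and 1 rose (4.55%, against 8.3%). Trim28, the KRAB corepressor itself, averaged 180 CPM in LPS and 399 in control (-1.15 ± 0.09, adjusted p = 3.53e-08), Uhrf1, which targets the maintenance methyltransferase to DNA, 105 and 491 (-2.22 ± 0.10, adjusted p = 1.91e-11), and Dnmt1, that methyltransferase, 188 and 545 (-1.54 ± 0.07, adjusted p = 7.24e-11). Suv39h1, Cbx3 and Cbx5 also fell. The 1 that rose was Daxx, a histone H3.3 chaperone, at 137 CPM in LPS and 41.5 in control (1.69 ± 0.09, adjusted p = 2.67e-10). In LPS+MP against LPS, Uhrf1 (30.8 against 105 CPM) and Cbx5 (26.6 against 62.1 CPM), which encodes HP1 alpha, fell (9.09%, against 3.89% of all genes). At the adjusted p alone 12 of 22 were lower there (54.5%, against 22.2% of all genes). LPS+MP against MP had 6 falls (27.3%, against 7.88% of all genes) and 1 rise (4.55%, against 5.71%). MP against control called Uhrf1 alone (4.55%, against 1.85% of all genes), which fell (210 in MP against 491 CPM in control, -1.23 ± 0.10, adjusted p = 1.5e-07). The list's median was -0.18 in LPS against control, where that of all genes was -0.08 and that of the KRAB genes 0.06.

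LPS given on top of MP called 4 members up and 12 down, and 4 up and 6 down after quantile normalization. Beside Zfp811 and Zfp36, Zfp703, a nuclear corepressor gene amplified in human breast cancer, had 226, 228 and 220 CPM in LPS+MP, 143, 101 and 144 in LPS, 93.1, 104 and 96.8 in MP and 81.6, 92.8 and 92.3 in control. Its LPS+MP libraries were above all the others, and it rose by 1.19 ± 0.11 against MP (adjusted p = 2.03e-07), while LPS against control was within 2-fold (0.52 ± 0.11, adjusted p = 8.18e-04). Zfp651 rose at a very low level, with 1.22, 1.88 and 1.89 CPM in LPS+MP and 0.173, 0.492 and 0.127 in MP (1.08 ± 0.22, adjusted p = 7.87e-04). Among the falls, Zfp395 had 2.84, 2.26 and 1.86 CPM in LPS+MP and 13.2, 15.6 and 15.4 in MP (-2.25 ± 0.23, adjusted p = 5.67e-07). Zfp473, whose human counterpart takes part in processing histone pre-mRNA, had 0.332, 0.113 and 0.753 CPM in LPS+MP and 2.45, 2.23 and 2.04 in MP (-1.24 ± 0.23, adjusted p = 3.08e-04). Zfp41 had 6.51, 7.56 and 6.34 CPM in LPS+MP and 18.1, 17.8 and 14.9 in MP (-1.20 ± 0.12, adjusted p = 2.97e-07), and its change was -0.91 after quantile normalization, which also brought Zfp367 within 2-fold (-0.93). None of these 3 genes, which were picked by their calls, overlapped between the groups. The remaining falls were Zfp101, Zfp36l2, Zfp367, Zfp385a, Zfp541, Zfp961, Zfp414, Zfp324 and Zfp759, with log2 changes up to -2.08 (Zfp101) and that of Zfp759 just past 2-fold. At the adjusted p alone 22 members were higher (7.56%, against 19% of all genes) and 90 lower (30.9%, against 36.6%). This split depended on scaling: after quantile normalization it was 48 higher and 41 lower. Without LPS replicate 2, a library outside this comparison, it was 30 higher and 121 lower. The shares of all genes in those fits are not given here. Median-ratio scaling moved the median of all genes by 0.13 and quantile normalization by 0.12. The members' median less that of all genes was -0.06 as reported and 0.01 and -0.07 after quantile normalization and median-ratio scaling, in that order.

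Members with known roles in RNA, ribosomes and the spindle, 9 of a list of 10, were mostly within 2-fold. Only Zfp385a was called, falling in LPS against control and in LPS+MP against MP (11.1% of the 9 each time, against 8.05% and 7.88% of all genes). Zfp598, an E3 ligase that senses collided ribosomes, had 155, 151 and 152 CPM in LPS+MP, 122, 81.3 and 116 in LPS, 110, 113 and 112 in MP and 93.2, 91.1 and 89.1 in control. It was higher in LPS+MP than in LPS by 0.54 ± 0.11 (adjusted p = 0.00158) and than in MP by 0.45 ± 0.11 (adjusted p = 0.00274). LPS replicate 2 was its lowest library, and without it the change in LPS+MP against LPS was 0.36. Zfp622, a maturation factor of the large ribosomal subunit, had 106, 109 and 116 CPM in LPS+MP, 80, 59.3 and 81.7 in LPS, 135, 131 and 131 in MP and 120, 114 and 121 in control. LPS alone gave its lowest values, lower than control by a log2 change of -0.69 ± 0.10 (adjusted p = 1.92e-05), and LPS+MP was higher than LPS by 0.59 ± 0.10 (adjusted p = 2.75e-04). Here too LPS replicate 2 was the lowest library, and without it LPS+MP was higher than LPS by 0.44. Zfp593, a factor of the export of that subunit, was higher in MP than in control (0.61 ± 0.12, adjusted p = 0.00129). Zfp207 was slightly lower in MP (-0.24 ± 0.07, adjusted p = 0.0141) and in LPS (-0.19 ± 0.07, adjusted p = 0.0295) than in control.

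Of 23 listed members with promoter and chromatin roles outside KRAB repression 19 were in the table. In LPS against control 1 rose (Zfp281) and 1 fell (Zfp704), 5.26% each, against 8.3% and 8.05% of all genes. None was called in MP against control, where 1.82% of all genes rose and 1.85% fell. None was called in LPS+MP against LPS, where 0.63% of all genes rose and 3.89% fell. In LPS+MP against MP Zfp703 rose (5.26%, against 5.71% of all genes). Zfp91, an E3 ligase of non-canonical NF-kB signalling, had 123, 140 and 141 CPM in LPS+MP, 117, 142 and 132 in LPS, 194, 191 and 181 in MP and 184, 194 and 181 in control. Libraries with LPS were all below those without it, by -0.51 ± 0.08 in LPS against control (adjusted p = 4.12e-05) and -0.48 ± 0.08 in LPS+MP against MP (adjusted p = 8.87e-05). Zfp131 was higher in MP (51.6, 45.2 and 42.7 CPM) and in LPS (41.8, 47.9 and 39.2) than in control (31.2, 30.4 and 29.5), by 0.59 ± 0.09 (adjusted p = 1.56e-04) and 0.48 ± 0.09 (adjusted p = 3.54e-04). Zfp609, a partner of the cohesin loader NIPBL, had its highest level in LPS+MP, at 78.4, 73.5 and 73.5 CPM against 39.5, 51.3 and 42.4 in control cells. Zfp410, known for activating Chd4, stayed between 23.8 and 30.2 CPM in all 12 libraries. Its log2 fold changes over the 4 pairwise comparisons lay between -0.21 and 0.03, each with an SE of 0.09.

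Of 8 listed members that silence retroelements or guard imprints 7 were in the table, all of the KRAB class. None was called in LPS against control, where 8.3% of all genes rose and 8.05% fell. None was called in MP against control either, where 1.82% of all genes rose and 1.85% fell. Zfp445, which maintains imprints, was the most abundant of them per kilobase (35.6 CPM per kb), with 111, 108 and 125 CPM in LPS+MP, 105, 151 and 118 in LPS, 107, 105 and 99.3 in MP and 76.4, 79.6 and 78.5 in control. All treated libraries exceeded all control libraries, within 2-fold: by 0.65 ± 0.10 in LPS (adjusted p = 6.11e-05) and 0.41 ± 0.10 in MP (adjusted p = 0.0062). Zfp809, which silences murine leukaemia viruses, was lower in LPS+MP (10.9, 9.06 and 12.1 CPM) than in LPS (14.7, 17.7 and 15.3), by -0.54 ± 0.13 (adjusted p = 0.00468). Without LPS replicate 2, the highest of its group, the change was -0.46. Zfp961 fell in LPS+MP against MP (14.3% of the 7, against 7.88% of all genes), and its levels are given with the interaction.

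The last comparison asked whether MP acted differently with LPS than without it, as the change in LPS+MP against LPS minus that in MP against control. No member rose past 2-fold (background 1.02%) and 4 fell (background 3.68%), while 3 were higher and 30 lower at the adjusted p alone (1.03% and 10.3%, against 6.45% and 15.5% of all genes). Zfp467, a regulator of osteoblast and adipocyte commitment, had 14.3, 15 and 17.6 CPM in LPS+MP, 34.5, 23.9 and 28.5 in LPS, 21.8, 24.5 and 26.9 in MP and 16.7, 17.9 and 15.5 in control. Each agent alone gave higher levels than control, and cells given both overlapped control. MP changed it by 0.52 ± 0.13 without LPS and by -0.84 ± 0.13 with it, a difference of -1.35 ± 0.19 (adjusted p = 1.05e-04). Zfp462 had 8.62, 9.03 and 9.21 CPM in LPS+MP, 9.97, 6.91 and 8.91 in LPS and the MP and control values above. MP changed it by 1.21 ± 0.13 without LPS and by 0.07 ± 0.13 with it, a difference of -1.15 ± 0.19 (adjusted p = 5.19e-04). Zfp961, a KRAB gene, had 4.86, 5.2 and 4.15 CPM in LPS+MP, 8.17, 13.6 and 7.96 in LPS, 10.6, 10.7 and 11.2 in MP and 8.82, 8.95 and 10 in control (-1.10 ± 0.23, adjusted p = 0.00327). LPS replicate 2 was its highest library, and without it the difference was -0.87. For Zfp101 the difference was -1.06 ± 0.23 (adjusted p = 0.00433), and it was within 2-fold without LPS+MP replicate 2 (-0.84), MP replicate 3 (-0.98) or control replicate 3. After quantile normalization the differences of Zfp462 (-0.89), Zfp961 (-0.86) and Zfp101 (-0.86) were within 2-fold, and Zfp467 alone of the 4 kept its call under every alternative run.

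**Figure D5:**
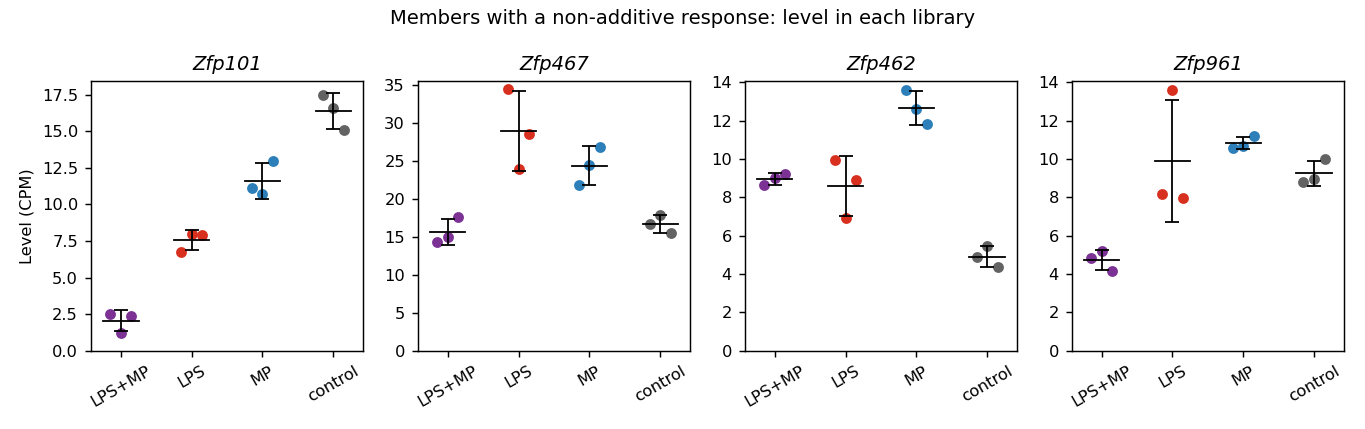
Level in CPM of the 4 members called in the interaction, in every library (points; bars are the mean ± SD of 3 libraries), with LPS+MP, LPS, MP and control from left to right. Zfp467 lies at 14.3 to 17.6 CPM in LPS+MP and 15.5 to 17.9 in control, below LPS (23.9 to 34.5) and MP (21.8 to 26.9), and Zfp101 is lowest in LPS+MP.

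Each agent's changes over the 291 members were set side by side in both backgrounds, which share no library. The change by LPS with MP present (LPS+MP against MP) and without it (LPS against control) had the same sign in 206 members (70.8%), with a Spearman correlation of 0.61 across genes. For MP with LPS present (LPS+MP against LPS) and without it (MP against control) the sign was shared by 166 members (57%) and the correlation was 0.37. Without LPS replicate 2 these correlations were 0.68 and 0.41. The genes are not independent replicates, all values come from the same 12 libraries, and no test is attached.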

How the data were processed

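RNA sequencing values of 12 J774A.1 libraries were used, with groups and replicate numbers from the sample titles. Libraries were made from polyadenylated RNA with a directional kit, per the labels' protocols. The submitters' processing notes name TopHat2 2.1.1, Trimmomatic 0.36, FastQC, edgeR, DESeq2 and HTSeq without saying what each did. Neither the genome build nor the strand setting of the counting is given in the sources used here. Coordinates are those of the deposited table. Of 11655 of its transcripts found in GENCODE M21 (GRCm38), 11651 overlapped the same place.

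The values deposited by the authors are headed RPKM but were read as CPM, since each library sums to between 998867 and 999273 with no division by length. The deposited logCPM column, read as a log2 CPM average, was not used in tests. Low values were not whole multiples of 1 step in most libraries (16.8% to 100% of them whole, tolerance 0.05 of a step), so no count model was run. The design had been written for log2(RPKM + 1), and the same test was applied to CPM. Depth is unknown.

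Values were tested as log2(CPM + 1) with limma 3.58.1 (R 4.3.3), a variance trend and 1 model of 4 groups, on 11745 genes with at least 1 CPM in at least 3 libraries, with Benjamini-Hochberg adjustment over all of them. Fold changes on this scale understate those of low genes. Calls needed an adjusted p under 0.05 and over 2-fold. Alternatives were a pseudocount of 0.1, no filter or 5 CPM, a fit of the compared groups alone, quantile or median-ratio scaling and a replicate block. Each library of the compared groups, and LPS replicate 2, was also left out in turn. All alternatives kept the variance trend. No protein table was at hand, so protein classes come from GENCODE coding sequences translated with Biopython 1.88 (Python 3.11.15), by patterns that may miss degenerate fingers or KRAB boxes. Promoters are RefSeq's.

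The members and gene lists were chosen with earlier results of these data known. Named members are those called, the most abundant, and those of the role lists. The labels call the libraries biological replicates, and the p-values measure the spread between them.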

Additional observations from a re-analysis of the deposited data

Results flagged for a closer look

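In 4 members the effect of MP with LPS present differed from its effect without LPS, by the interaction term of the limma fit. The effect of MP with LPS minus that without it was -1.35 for Zfp467, -1.15 for Zfp462, -1.10 for Zfp961 and -1.06 for Zfp101 on the log2 scale. Zfp467 went in opposite directions (-0.84 with LPS and 0.52 without). Zfp462 changed by 0.07 with LPS and rose by 1.21 without it. Zfp961 changed by -0.89 with LPS and by 0.21 without it, and Zfp101 by -1.52 with LPS and by -0.47 without it. After quantile normalization the differences of Zfp462 (-0.89), Zfp961 (-0.86) and Zfp101 (-0.86) were within 2-fold, and that of Zfp101 was also within 2-fold without any 1 of 3 libraries, at -0.84 without LPS+MP replicate 2. Zfp961 was within 2-fold without LPS replicate 2 (-0.87). Groups of 3 libraries are too small for a test of single outlying libraries.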

How the results depend on the processing

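Of 37 calls of members, 20 held under every alternative run, among them those of Zfp811, Zfp36, Zfp36l2, Zfp395 and Zfp385a, and no called member reversed direction. Of 3859 alternative values of named members, 37 lost a call and 29 gained one. With a pseudocount of 0.1, 11 members fell in LPS against control, 12 in LPS+MP against LPS and 19 in LPS+MP against MP. After quantile normalization 1 fell in LPS+MP against LPS (41 higher, 25 lower, median 0.04), 6 fell in LPS+MP against MP (48 higher, 41 lower, median -0.01), and in the interaction 1 rose and 1 fell (15 higher, 15 lower, median 0.00). Median-ratio scaling gave 1 rise in LPS+MP against LPS and 1 in the interaction (7 higher), and 40 higher, 49 lower and a median of -0.08 in LPS+MP against MP. With only the compared groups in the fit, 64 members were higher and 40 lower in MP against control, and 9 higher and 24 lower in LPS+MP against LPS. The cause of these moves was not tested. The shares of all genes in these fits, and in the fits described below, are not given here. The counts therefore do not separate a move of the members from a move of the whole table.

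Leaving out single libraries gave, in MP against control, 26 to 65 higher and 14 to 39 lower, with 1 rise, 2 falls and a median of 0.02 to 0.06. In LPS against control it gave 48 to 63 higher, 49 to 75 lower, 3 to 5 rises, 6 to 9 falls and a median of -0.06 to 0.04. In LPS+MP against LPS it gave 11 to 23 higher, 29 to 73 lower, 0 to 1 rises, 2 to 4 falls and a median of -0.20 to -0.08. In LPS+MP against MP it gave 16 to 30 higher, 62 to 121 lower, 3 to 4 rises, 10 to 13 falls and a median of -0.22 to -0.18. In the interaction it gave 1 to 8 higher, 21 to 47 lower, 0 to 1 rises, 3 to 7 falls and a median of -0.20 to -0.12. Calls near 2-fold in LPS+MP against MP were lost without MP replicate 3 for Zfp541 (-0.94), Zfp651 (1.00) and Zfp324 (-0.86), without MP replicate 2 for Zfp414 (-0.99), and without LPS+MP replicate 3 for Zfp961 (-0.97). Quantile normalization brought Zfp41 (-0.91) and Zfp367 (-0.93) within 2-fold there. Zfp759, just past 2-fold, lost its call under 5 alternatives.

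Correlations of deviations did not settle whether replicate numbers pair the libraries. Over 18 pairs the median correlation was 0.018 (-0.247 to 0.158), while the best mean correlation was with the own number in 7 of 12 libraries. With the number as a replicate block, 41 members were higher and 23 lower in MP against control, 58 and 62 in LPS against control, 18 and 62 in LPS+MP against LPS, and 22 and 89 in LPS+MP against MP, and no count of rises or falls changed. The interaction had no fit restricted to compared groups, since it uses all 4.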
